A study of Mus musculus with 48 samples.

Results

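The genes described here are 31 listed genes of sterol and fatty acid synthesis, 21 in the sterol arm and 10 in the fatty acid arm. A gene was kept where the array held a probe set annotated to that gene alone, and the probe set with the highest mean over all arrays stood for it. By this rule 29 of the 31 were measured, 19 of the sterol arm and 10 of the fatty acid arm, out of 12393 genes in all. Insig1 and Acat2 had no probe set with a single symbol in the annotation used here and are not analysed. RNA from the lungs of male C57BL/6 mice was hybridised to 48 Affymetrix arrays, 8 biological replicates in each of 6 groups. Regular weight (RW) mice ate PMI 5002 pellets with about 5 kcal% fat, and diet-induced obese (DIO) mice ate D12492 pellets with 60 kcal% fat from 6 weeks of age, for 9 weeks before exposure. From 15 weeks of age, mice of each diet breathed filtered air (SC), mainstream smoke (MS, drawn through the cigarette) or sidestream smoke (SS, from the burning tip) by the nose only. Exposure lasted 5 hours a day on 8 days within 2 weeks, with 2 days of rest between, and the lungs were taken on the day after. The feeding protocol also names an LPS exposure study, and whether these mice received LPS is not stated in the sources used here. The diets came from different makers, so obesity and the other differences between the diets cannot be told apart.

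Cells make cholesterol from acetyl-CoA through mevalonate, squalene and lanosterol, and they make fatty acids from the same acetyl-CoA through malonyl-CoA. The transcription factor SREBP2, the product of Srebf2, is held in the endoplasmic reticulum when sterols are plentiful and drives the sterol genes when they are scarce, while SREBP1c, from Srebf1, drives the fatty acid genes. In the lung, alveolar type 2 cells make the lipid of surfactant and alveolar macrophages take it up again. Fat cells also make fatty acids and hold much RNA of the fatty acid arm.

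The promoters of the 3 sterol genes with the largest difference after mainstream smoke in regular weight mice, Cyp51, Idi1 and Hmgcs1, are shown with that of Mvk, a pathway neighbour that was not called in any comparison. Each runs 5′ to 3′ on the gene's own strand, from 250 bases before to 50 bases after the start site, as given by RefSeq for GRCm38.p6. Capitals mark each CCAAT, the box bound by NF-Y, on either strand (ATTGG on the reverse), and, in Hmgcs1, 1 match to the sterol regulatory element TCACNCCAC (GTGGNGTGA on the reverse). No marked motifs overlap. Cyp51 lies at chr5:4104648-4104947 on the minus strand, Idi1 at chr13:8885356-8885655 on the plus strand, Hmgcs1 at chr13:119690101-119690400 on the plus strand and Mvk at chr5:114444019-114444318 on the plus strand.
Cyp51: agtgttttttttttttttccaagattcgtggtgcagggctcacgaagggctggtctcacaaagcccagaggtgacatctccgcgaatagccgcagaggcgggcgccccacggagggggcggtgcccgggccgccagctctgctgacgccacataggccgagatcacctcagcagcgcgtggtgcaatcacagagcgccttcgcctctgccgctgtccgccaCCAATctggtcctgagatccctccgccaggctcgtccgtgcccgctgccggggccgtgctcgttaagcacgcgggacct
Idi1: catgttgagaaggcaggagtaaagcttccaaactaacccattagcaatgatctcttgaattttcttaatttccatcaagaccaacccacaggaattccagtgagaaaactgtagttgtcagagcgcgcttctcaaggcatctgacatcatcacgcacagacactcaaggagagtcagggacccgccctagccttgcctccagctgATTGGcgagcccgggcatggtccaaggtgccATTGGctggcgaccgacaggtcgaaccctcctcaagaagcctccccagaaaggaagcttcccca
Hmgcs1: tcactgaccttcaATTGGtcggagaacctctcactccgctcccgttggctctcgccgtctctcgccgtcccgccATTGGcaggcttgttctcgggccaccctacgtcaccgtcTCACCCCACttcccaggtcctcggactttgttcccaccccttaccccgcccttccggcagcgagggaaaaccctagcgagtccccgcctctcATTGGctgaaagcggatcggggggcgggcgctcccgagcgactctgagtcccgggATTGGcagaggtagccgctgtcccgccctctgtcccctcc
Mvk: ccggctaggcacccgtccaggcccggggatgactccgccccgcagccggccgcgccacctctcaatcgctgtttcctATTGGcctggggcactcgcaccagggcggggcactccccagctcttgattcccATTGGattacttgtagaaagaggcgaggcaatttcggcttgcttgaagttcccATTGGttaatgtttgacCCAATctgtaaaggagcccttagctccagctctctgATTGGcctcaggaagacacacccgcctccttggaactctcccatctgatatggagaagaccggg
Cyp51 held 1 CCAAT box, Idi1 2, Hmgcs1 4 and Mvk 5. Whether the number of boxes goes with the response was not tested. A promoter was found for 15 sterol arm genes and 7 fatty acid arm genes. A gene with several promoters was counted as holding a motif where any of them did. A CCAAT box was found for 15 of 15 sterol genes and 4 of 7 fatty acid genes. Counted the same way, it was found for 42.3% of the 9887 tested genes with a promoter. Of all 32851 single promoters in the table, 37.4% held it. An exact match to the sterol regulatory element TCACNCCAC was found for 1 of 15 and 0 of 7 genes. It was found in 1.24% of all single promoters and for 1.5% of the tested genes. Other forms of the element were not searched for, so a gene without a match may still hold an element. The E-box CACGTG, which reads the same on both strands, was found in 3 of 15 (Hsd17b7, Sc5d and Dhcr7) and 0 of 7, against 7.15% and 10.8%. The Sp1 box GGGCGG, searched on both strands, was found in 14 of 15 and 3 of 7, against 35.7% and 61.0%. The entries for Fdps, Fdft1, Sqle, Stard4, Scd1, Scd2 and Fads1 were not in the table.

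All values are log2 signals, so a difference of 1 is a change of signal by a factor of 2, and the signals of different genes are not compared because probe sets differ in brightness. A value after ± is a standard error of the difference. A gene is said to have risen or fallen where limma's p, adjusted over all 12393 genes within the comparison by the Benjamini-Hochberg method, was below 0.05. The lung markers Sftpc and Scgb1a1 were bright on every array, at 14.97 to 15.13 and 15.08 to 15.27. The mean of 6 lung tissue markers varied more, with group medians of 12.76 to 12.84. It was 12.2 in DIO-SC-7, 12.62 in DIO-SC-3 and 12.63 in DIO-MS-1 and DIO-MS-6. Whether lung content was equal on all arrays was not tested. Of the 48 arrays, 5 stood apart, with a mean correlation to the other arrays of 0.963 to 0.982 against at least 0.987 for the other 43. They were DIO-SC-3, DIO-SC-7, RW-SS-6, DIO-MS-1 and DIO-MS-6. The mean of 7 fat cell markers was 10.47 in DIO-SC-7 and 10.68 in RW-SS-6, while the group medians ran from 5.96 to 6.89. DIO-SC-3 was highest in the mean of 5 skeletal muscle markers, at 13.51, and of 5 squamous epithelium markers, at 12.29, where the group medians were 5.96 to 7.09 and 5.11 to 5.36. Where the call of a member changed without the 5 arrays, both values are given. In whole tissue, fewer cells of a type and less RNA per cell cannot be told apart.

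In regular weight mice, mainstream smoke raised 10 of the 19 measured sterol arm genes and lowered 0 by limma's adjusted p. At an unadjusted p below 0.05, 13 were higher and 0 lower, where 1404 of all 12393 genes were higher and 2053 lower. The genes that rose span the pathway from the making of HMG-CoA to the last reduction. Over all genes 6.61% rose and 8.07% fell in this comparison. The median difference was 0.26 for the sterol arm, -0.04 for the fatty acid arm and -0.03 for all genes.

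Cyp51, lanosterol demethylase, lay between 7.69 and 7.96 in air (median 7.88) and between 8.3 and 9.09 after mainstream smoke (median 8.56). No smoke array overlapped an air array, and the difference was 0.72 ± 0.09, or 1.65-fold (adjusted p = 8e-08). Idi1, the isomerase that makes dimethylallyl diphosphate, lay between 9.43 and 9.89 in air (median 9.64) and between 10.17 and 10.7 after smoke (median 10.29). Again the groups did not overlap, with a difference of 0.7 ± 0.07 (adjusted p = 2.8e-10). Hmgcs1, the HMG-CoA synthase at the head of the pathway, ran from 10.26 to 10.63 in air (median 10.52) and from 10.81 to 11.51 after smoke (median 11.12). Its groups were also separate, and it rose by 0.62 ± 0.07 (adjusted p = 3.1e-09).

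Of the other early enzymes, Mvd, which decarboxylates mevalonate diphosphate, rose by 0.55 ± 0.08 (adjusted p = 2.5e-06). Its 8 smoke arrays lay above every air array. Fdps, which makes farnesyl diphosphate, rose by 0.35 ± 0.08 (adjusted p = 0.0029), with 7 of 8 arrays above the air range. The 2 mevalonate kinases were not called: Mvk differed by 0.05 ± 0.07 and Pmvk by 0.2 ± 0.09.

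At the squalene steps, Sqle, squalene epoxidase, rose by 0.61 ± 0.07 (adjusted p = 1.1e-08), from a median of 9.32 in air to 9.89, with no overlap. Fdft1, squalene synthase, rose by 0.26 ± 0.09 (adjusted p = 0.04) and Lss, lanosterol synthase, by 0.26 ± 0.07 (adjusted p = 0.013). Their groups overlapped, with 1 and 2 smoke arrays above the air range. Both calls rest on array RW-MS-5, the highest of its group for both: without it Fdft1 differed by 0.2 (adjusted p = 0.12) and Lss by 0.19 (adjusted p = 0.053).

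After lanosterol, Msmo1, the methylsterol oxidase, rose by 0.56 ± 0.09 (adjusted p = 1.3e-05), with no overlap between the groups. Dhcr7, the reductase that closes the route to cholesterol, rose by 0.4 ± 0.08 (adjusted p = 0.00031), with 5 of 8 arrays above the air range. The other enzymes of this stretch were not called, and their differences were 0.17 ± 0.09 for Tm7sf2, 0.11 ± 0.06 for Nsdhl, 0.24 ± 0.09 for Hsd17b7, -0.0 ± 0.06 for Ebp and 0.08 ± 0.06 for Sc5d. Of the regulators and carriers, Srebf2 differed by -0.07 ± 0.07 and Stard4, a sterol carrier, by 0.23 ± 0.1, neither called. Their second probe sets gave 0.13 for Srebf2 and 0.01 for Stard4, and were not tested by themselves. Without the 5 arrays, none of which lies in these groups, Hsd17b7 (0.24 ± 0.08, adjusted p = 0.03) and Stard4 (0.23 ± 0.07, adjusted p = 0.015) were called as well. In all, the groups did not overlap for 6 of the 19 sterol genes (Hmgcs1, Mvd, Idi1, Sqle, Cyp51 and Msmo1), where 2.78% of all genes had smoke arrays wholly above the air arrays.

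**Figure D1:**
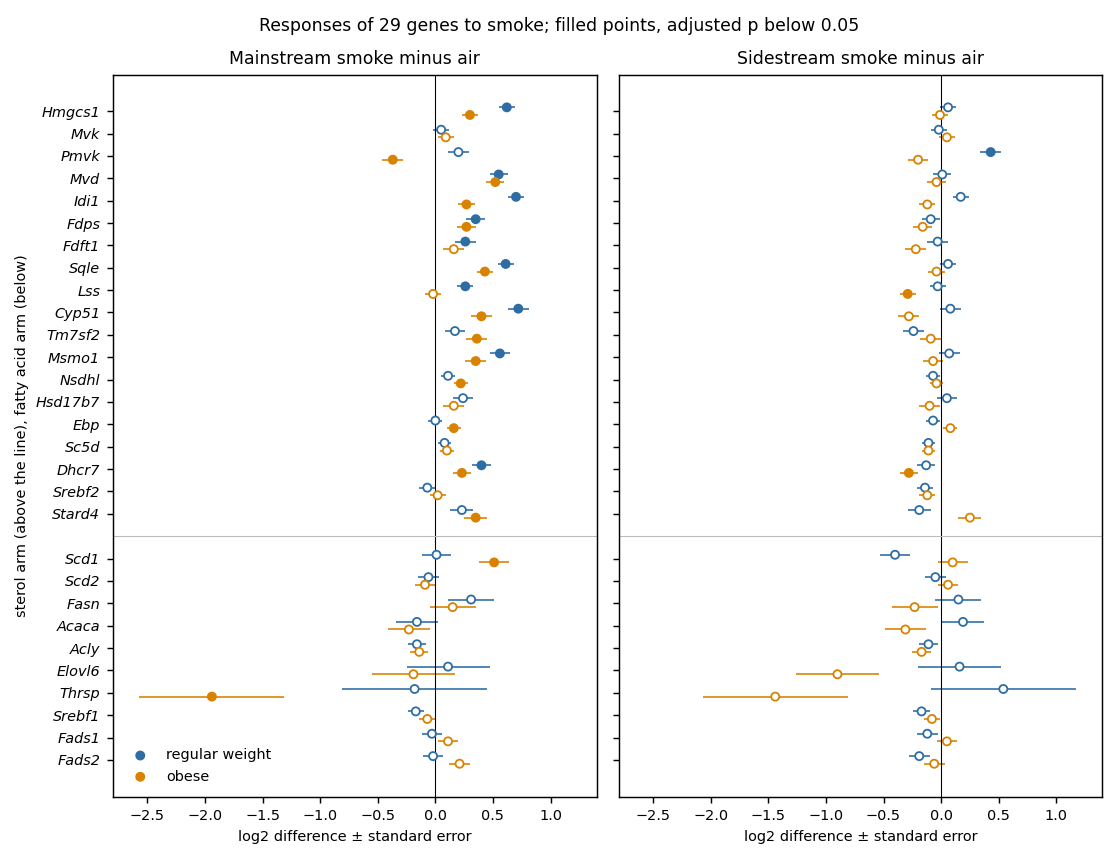
Log2 difference from filtered air of the 29 measured genes, in mainstream and in sidestream smoke, with bars of 1 standard error; regular weight mice are blue and obese mice orange, and filled points mark an adjusted p below 0.05. In regular weight mice 10 sterol arm points in mainstream smoke are filled and lie to the right of 0, while in sidestream smoke the filled points are few, and the wide bars of Thrsp and Elovl6 belong to the fatty acid arm.

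In obese mice, mainstream smoke raised 12 of the 19 sterol arm genes and lowered 1, Pmvk, where 11.7% of all genes rose and 9.76% fell. The median difference was 0.23 for the sterol arm and -0.02 for all genes. Of the 10 sterol genes called in regular weight mice and the 13 called in obese mice, 8 were the same. Fdft1 and Lss were called in regular weight mice alone, and Ebp, Nsdhl, Pmvk, Stard4 and Tm7sf2 in obese mice alone. Of these 7 genes, the test of the difference between the diets called Pmvk alone.

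Mvd had the smallest adjusted p of the obese sterol arm. It lay between 7.11 and 7.75 in air (median 7.52) and between 7.75 and 8.28 after smoke (median 8.0), and rose by 0.52 ± 0.08 (adjusted p = 3.6e-06). Of the 8 smoke arrays, 7 lay above the air range. Sqle ran from 9.0 to 9.53 in air (median 9.32) and from 9.54 to 9.91 after smoke (median 9.77). It rose by 0.43 ± 0.07 (adjusted p = 8.3e-06) and was separate in its groups. Cyp51 rose by 0.4 ± 0.09 (adjusted p = 0.001). The obese air arrays spread from 7.52 to 8.46, and 3 of 8 smoke arrays lay above them.

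Early in the pathway Hmgcs1 rose by 0.3 ± 0.07, Idi1 by 0.27 ± 0.07 and Fdps by 0.27 ± 0.08. Late in it Tm7sf2, a sterol reductase, rose by 0.36 ± 0.09, Msmo1 by 0.35 ± 0.09, Nsdhl, a sterol dehydrogenase, by 0.22 ± 0.06, Dhcr7 by 0.23 ± 0.08 and Ebp, a sterol isomerase, by 0.16 ± 0.06. The carrier Stard4 rose by 0.35 ± 0.1. The call of Ebp was lost without DIO-SC-7 (0.1, adjusted p = 0.1) and that of Stard4 with the mean of the fat cell markers as a covariate (0.2, adjusted p = 0.08). Fitted on the obese air and mainstream groups alone, 7 sterol genes rose and 0 fell. The calls lost in that fit were those of Pmvk (adjusted p = 0.059), Fdps (adjusted p = 0.068), Tm7sf2 (adjusted p = 0.062), Msmo1 (adjusted p = 0.086), Ebp (adjusted p = 0.23) and Dhcr7 (adjusted p = 0.15). For Nsdhl the groups did not overlap, which made 2 of the 19 sterol genes with Sqle, against 3.03% of all genes. Pmvk, the phosphomevalonate kinase, went the other way: it lay between 8.16 and 9.16 in air (median 8.77) and between 8.1 and 8.59 after smoke (median 8.41), and fell by 0.37 ± 0.09 (adjusted p = 0.0023). The groups overlapped, with 1 smoke array below the air range. Lss differed by -0.02 ± 0.07 and Srebf2 by 0.02 ± 0.07, neither called. The second probe set of Srebf2 gave 0.2.

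**Figure D2:**
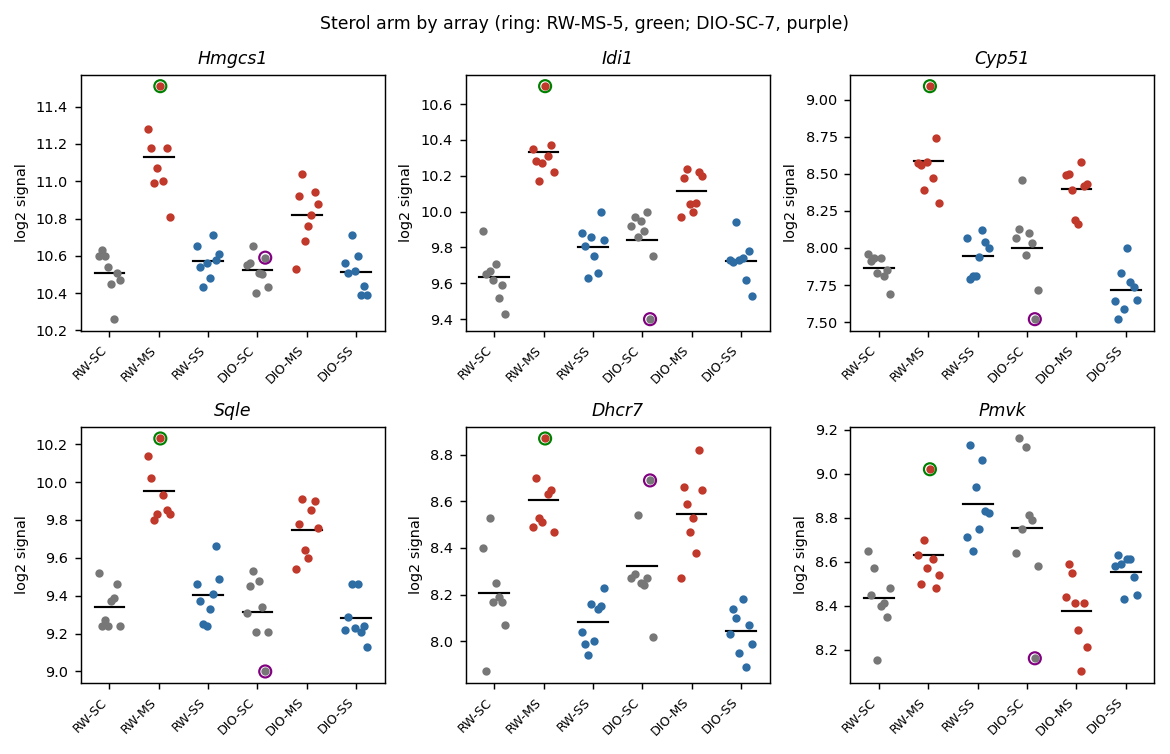
Log2 signal of 6 sterol arm genes on each of the 48 arrays by group, with bars at the group means; a green ring marks RW-MS-5 and a purple ring DIO-SC-7. The mainstream smoke arrays of regular weight mice lie above all air arrays of that diet for Hmgcs1, Idi1, Cyp51 and Sqle, whereas Pmvk is highest in air among obese groups and in sidestream smoke among regular weight groups.

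Markers of other cells moved with mainstream smoke too. All 4 measured cell division markers rose in both diets, and their mean level ran from 5.97 to 6.64 in regular weight air arrays and from 7.2 to 8.87 after smoke, highest in RW-MS-5. In obese mice it ran from 6.25 to 10.38 in air, highest in DIO-SC-7, and from 7.59 to 8.83 after smoke. Of 7 alveolar macrophage markers 3 rose and 2 fell in each diet, with mean levels of 9.89 to 10.14 and 9.85 to 10.39 in regular weight mice and of 9.4 to 10.24 and 9.49 to 10.19 in obese mice. Of 8 alveolar type 2 markers 1 rose and 2 fell in regular weight mice, and 5 rose in obese mice, with mean levels of 13.05 to 13.21 and 13.07 to 13.23 in the first diet and of 12.39 to 13.12 and 12.99 to 13.28 in the second. The lowest obese air arrays were DIO-SC-7, at 12.39, and DIO-SC-3, at 12.75. In obese against regular weight air 4 of these 8 markers were lower and 0 higher, where 5.99% of all genes were lower. The part of these cells in the sterol result was not tested.

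On the probe sets used, sidestream smoke gave no such rise. Of the 19 sterol genes 1 rose in regular weight mice, Pmvk, and 0 fell, where 0.694% of all genes rose and 1.48% fell. By an unadjusted p below 0.05, 1 of the 19 was lower, against 1181 of all 12393 genes. The median difference of the arm was -0.03, against -0.01 for all genes. With the mean of all probe sets 2 of the 19 rose and 0 fell, where 85 of all genes rose and 199 fell. At an unadjusted p below 0.05 that fit gave 4 higher and 4 lower, where 792 of all 12393 genes were higher and 1327 lower. Unused probe sets gave up to 0.73 for Idi1, 0.36 for Cyp51 and 0.33 for Hmgcs1, while those of Stard4 and Sc5d gave -0.37 and -0.18. Pmvk lay between 8.15 and 8.65 in air (median 8.43) and between 8.65 and 9.13 after sidestream smoke (median 8.83). All but 1 of the sidestream arrays lay above the air range, and the gene rose by 0.43 ± 0.09 (adjusted p = 0.0053). Without the 5 arrays Tm7sf2 was called as well, at -0.26 ± 0.08 (adjusted p = 0.041). In obese mice 1 of the 19 was higher at an unadjusted p below 0.05, against 1695 of all 12393 genes. By the adjusted p 0 sterol genes rose and 2 fell, where 4.26% of all genes rose and 2.59% fell. These were Lss, which fell by 0.29 ± 0.07 (adjusted p = 0.01) and Dhcr7 by 0.28 ± 0.08 (adjusted p = 0.023). The median of the arm was -0.1, against 0.02 for all genes. The mean of all Lss probe sets differed by -0.11 (adjusted p = 0.31). Dhcr7 was not called without DIO-SC-7 (-0.22, adjusted p = 0.064) or without the 5 arrays (-0.18 ± 0.07, adjusted p = 0.11). Without the 5 arrays Cyp51 (-0.28 ± 0.08, adjusted p = 0.025) and Pmvk (-0.29 ± 0.08, adjusted p = 0.021) were called.

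The direct comparison of the smokes, which uses the same mainstream arrays as the comparisons with air, called 14 of 19 sterol genes higher in mainstream smoke in regular weight mice and 13 in obese mice. Over all genes 6.05% and 8.83% were higher, and 3.72% and 8.0% lower. None of the 19 was lower in either diet by limma's adjusted p, with 1 lower in regular weight and 0 in obese mice at an unadjusted p below 0.05. Of all 12393 genes, 1510 and 2006 were lower by the unadjusted p. The arm's median was 0.41 in regular weight and 0.31 in obese mice, against -0.02 and -0.04 for all genes. Of the 14 and the 13 genes, 13 were shared, and Stard4 was called in regular weight mice alone. The smallest adjusted p in regular weight mice was that of Hmgcs1, at 0.56 ± 0.07 (adjusted p = 4.3e-08), followed by Sqle at 0.55 ± 0.07 (adjusted p = 1.3e-07) and Idi1 at 0.53 ± 0.07 (adjusted p = 3.2e-07). In obese mice it was that of Cyp51, at 0.68 ± 0.09 (adjusted p = 2e-07), followed by Mvd at 0.56 ± 0.08 (adjusted p = 1.2e-06) and Sqle at 0.47 ± 0.07 (adjusted p = 2.4e-06). The groups did not overlap for 8 of the 19 sterol genes in each diet, against 2.97% and 3.82% of all genes. The calls of Fdft1, Nsdhl and Sc5d in regular weight mice were lost without RW-MS-5, while Pmvk was then called lower (-0.28 ± 0.09, adjusted p = 0.046). In obese mice that of Sc5d was lost without the 5 arrays (0.16 ± 0.06, adjusted p = 0.1).

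Diet on its own moved few sterol genes. In air, obese mice had 2 sterol genes higher than regular weight mice, and 0 lower, where 2.29% of all genes were higher and 5.99% lower. At an unadjusted p below 0.05 limma gave 2 lower, where 1899 of all 12393 genes were lower. The 2 higher genes were Pmvk, by 0.32 ± 0.09 (adjusted p = 0.024) and Lss by 0.28 ± 0.07 (adjusted p = 0.011). Neither was called in a fit of those 2 groups alone (adjusted p = 0.17 and 0.1), and the mean of all Lss probe sets differed by 0.07 (adjusted p = 0.57). The medians of Pmvk were 8.43 in regular weight and 8.77 in obese mice, and 5 of 8 obese arrays lay above the regular weight range. Without the 5 arrays Idi1 was called as well, at 0.28 ± 0.07 (adjusted p = 0.0053). In mainstream smoke, obese mice had 1 sterol gene lower, Hmgcs1 (-0.31 ± 0.07, adjusted p = 0.016), where 0.613% of all genes were higher and 0.597% lower. That call was lost without the 5 arrays (-0.26 ± 0.07, adjusted p = 0.055), and Ebp was then called higher (0.17 ± 0.04, adjusted p = 0.042). In sidestream smoke limma called 0 sterol genes, where 0.654% of all genes were higher and 0.323% lower. By an unadjusted p below 0.05 it gave 2 higher and 3 lower in sidestream smoke, against 648 and 579 of all 12393 genes. Pmvk was called lower there without the 5 arrays, at -0.28 ± 0.08, with an adjusted p that rounds to 0.05.

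Whether the response differed between the diets was tested by the interaction, the obese response minus the regular weight response. For mainstream smoke 2 sterol genes were called, both negative, where 0.299% of all genes were called negative and 0.589% positive. Pmvk responded by 0.2 in regular weight and by -0.37 in obese mice, a difference of -0.57 ± 0.13 (adjusted p = 0.024). Idi1 rose in both diets, by 0.7 and 0.27, and the difference was -0.43 ± 0.1 (adjusted p = 0.029). For Hmgcs1 the difference was -0.32 ± 0.1 (adjusted p = 0.095) and for Cyp51 -0.32 ± 0.13 (adjusted p = 0.23), neither called. Fitted on the 4 groups compared alone, the Pmvk and Idi1 interactions were not called (adjusted p = 0.093 for both). For sidestream smoke Pmvk was called again, at -0.62 ± 0.13 (adjusted p = 0.0079), where 0.258% of all genes were called negative and 0.395% positive. The 2 interactions share the air arrays, in which Pmvk was higher in obese mice.

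Hmgcs1, Pmvk, Lss and Dhcr7 were each called in 3 or more of the 7 comparisons of a diet or a smoke with its reference. The group means of Hmgcs1 were, from low to high, 10.51 ± 0.11 (SD) in DIO-SS, 10.51 ± 0.12 in RW-SC, 10.53 ± 0.08 in DIO-SC, 10.57 ± 0.09 in RW-SS, 10.82 ± 0.16 in DIO-MS and 11.13 ± 0.21 in RW-MS. The 4 groups without mainstream smoke lay within 1 SD of each other, and the mainstream groups stood above them. Dhcr7 had means of 8.04 ± 0.1 in DIO-SS, 8.08 ± 0.1 in RW-SS, 8.21 ± 0.2 in RW-SC, 8.32 ± 0.2 in DIO-SC, 8.55 ± 0.17 in DIO-MS and 8.61 ± 0.14 in RW-MS. Of the neighbours in this order, DIO-SC and DIO-MS alone differed by more than the larger of their SDs.

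Lss and Pmvk had other orders. Lss was at 7.9 ± 0.12 in RW-SS, 7.92 ± 0.06 in DIO-SS and 7.93 ± 0.15 in RW-SC, and at 8.19 ± 0.2 in RW-MS, 8.2 ± 0.11 in DIO-MS and 8.22 ± 0.2 in DIO-SC. On the probe set used it thus formed a lower and a higher set of 3 groups, within which the means differed by less than the SD. Another Lss probe set, of mean 7.09, gave -0.05 for obese against regular weight air, where the one used gave 0.28. Pmvk was at 8.38 ± 0.17 in DIO-MS, 8.43 ± 0.15 in RW-SC, 8.55 ± 0.08 in DIO-SS, 8.63 ± 0.17 in RW-MS, 8.75 ± 0.31 in DIO-SC and 8.86 ± 0.17 in RW-SS, and no neighbours in its order differed by more than the larger of their SDs. The regulators spanned less: Srebf2 ran from 9.52 ± 0.1 in DIO-SS through 9.6 ± 0.12 in RW-SS, 9.64 ± 0.1 in DIO-SC, 9.66 ± 0.23 in DIO-MS and 9.67 ± 0.09 in RW-MS to 9.74 ± 0.17 in RW-SC. Srebf1 was at 10.09 ± 0.15 in DIO-MS, 10.09 ± 0.1 in DIO-SS, 10.16 ± 0.14 in DIO-SC, 10.18 ± 0.15 in RW-MS, 10.18 ± 0.17 in RW-SS and 10.36 ± 0.12 in RW-SC. Apart from the step up to RW-SC for Srebf1, neighbours differed by less than the larger of their SDs. On the probe sets used, neither regulator was called in any comparison with all arrays.

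The fatty acid arm held fewer called genes than the sterol arm. After mainstream smoke limma called 0 of its 10 genes in regular weight mice. At an unadjusted p below 0.05, 0 were higher and 2 lower, where 1404 of all 12393 genes were higher and 2053 lower. In obese mice 1 rose, Scd1, and 1 fell, Thrsp, where 11.7% of all genes rose and 9.76% fell, so neither count stands apart from the background. The median of the arm was -0.08. Sidestream smoke against air, and diet within each exposure, gave 0 calls by limma, in comparisons whose shares of all genes are given above. At an unadjusted p below 0.05 there were 3 lower in regular weight and 3 lower in obese mice after sidestream smoke, 4 lower in obese air, 0 in mainstream smoke and 1 lower in sidestream smoke. Over all 12393 genes the counts lower were 1181, 1093, 1899, 915 and 579 in the same order. The interaction of diet with either smoke also gave 0 calls, with 1 higher at an unadjusted p below 0.05 for mainstream smoke, and 1 higher and 2 lower for sidestream smoke. Over all genes those counts were 1073 higher for mainstream smoke, and 983 higher and 529 lower for sidestream smoke.

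Scd1, which desaturates stearate to oleate, lay between 12.95 and 13.3 in obese air (median 13.08) and between 13.43 and 13.69 after mainstream smoke (median 13.62). The groups did not overlap, and it rose by 0.51 ± 0.13 (adjusted p = 0.0026). Its median in regular weight mice was 13.45 in air and 13.35 after mainstream smoke, a difference of 0.01 ± 0.13. The interaction, 0.5 ± 0.18, was not called (adjusted p = 0.18). Against sidestream smoke Scd1 was higher after mainstream smoke in both diets, by 0.42 ± 0.13 (adjusted p = 0.029 in regular weight and 0.019 in obese mice), and Fads2, a desaturase of polyunsaturated fatty acids, was higher in obese mice, by 0.27 ± 0.09 (adjusted p = 0.024). Without RW-MS-5 the Scd1 call in regular weight mice was lost (0.33, adjusted p = 0.097).

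Thrsp, a small regulator of fat synthesis that is abundant in fat cells, was the most variable of the members. In obese air it ran from 6.39 to 12.27 (median 7.8) and after mainstream smoke from 5.92 to 7.16 (median 6.51). The ranges overlapped, with 3 of 8 smoke arrays below all air arrays, and it fell by 1.94 ± 0.63 (adjusted p = 0.022). Its highest value came from DIO-SC-7, the obese air array with the most fat cell marker signal. Without DIO-SC-7 the difference was -1.4 (adjusted p = 0.073), without the 5 arrays it was -0.79 ± 0.44 (adjusted p = 0.24), and with the fat cell covariate it was -0.41 ± 0.19 (adjusted p = 0.11). Fitted on the 2 groups alone it was not called (adjusted p = 0.088). Of those 7 markers 3 fell in the same comparison, and their mean ran from 5.54 to 10.47 in air and from 5.43 to 6.37 after smoke.

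Fasn, fatty acid synthase, and Elovl6, an elongase of palmitate, were not called with all arrays. In obese mice after mainstream smoke Fasn differed by 0.15 ± 0.2 and Elovl6 by -0.19 ± 0.36. Elovl6 ran from 6.9 to 10.17 in obese air, around a median of 7.22, and from 7.24 to 8.25 after smoke, around 7.65. Without the 5 arrays the same comparison gave 0.41 ± 0.11 for Fasn (adjusted p = 0.0067) and 0.41 ± 0.1 for Elovl6 (adjusted p = 0.0036). With the fat cell covariate the values were 0.52 ± 0.14 (adjusted p = 0.0044) and 0.61 ± 0.19 (adjusted p = 0.015).

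Other fatty acid genes also depended on those arrays. Leaving the 5 arrays out called 3 of them after mainstream smoke in regular weight mice, Fasn at 0.31 ± 0.1 (adjusted p = 0.018), Acly, which makes cytosolic acetyl-CoA, at -0.16 ± 0.05 (adjusted p = 0.025) and Srebf1 at -0.17 ± 0.06 (adjusted p = 0.037). None of the 5 arrays lies in those groups, so the differences are those seen with all arrays and only their standard errors are smaller. In that fit 1267 of all 12393 genes rose and 1748 fell, so these counts do not stand apart from the background. Against sidestream smoke the fit without the 5 arrays called Elovl6, at 0.39 ± 0.09 in regular weight and 0.63 ± 0.1 in obese mice. It also called Fasn, at 0.41 ± 0.1 and 0.42 ± 0.11. Of all genes 1086 were then higher and 1030 lower in regular weight mice, and 883 and 599 in obese mice. Scd1 was called lower after sidestream smoke in regular weight mice, at -0.56 ± 0.09 (adjusted p = 0.00014), where with all arrays it was -0.4 ± 0.13 (adjusted p = 0.085), and lower in obese than regular weight air, at -0.31 ± 0.1 (adjusted p = 0.036). Of all genes 370 were called lower in the first of these comparisons and 752 in the second. The interaction of diet with sidestream smoke then called Scd1, at 0.62 ± 0.14 (adjusted p = 0.0088), and Idi1, at -0.38 ± 0.09 (adjusted p = 0.027). Of all genes 70 were called positive and 85 negative there. Acaca, Scd2, Elovl6, Fasn, Acly, Srebf1 and Fads1 were called in no comparison with all arrays.

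**Figure D3:**
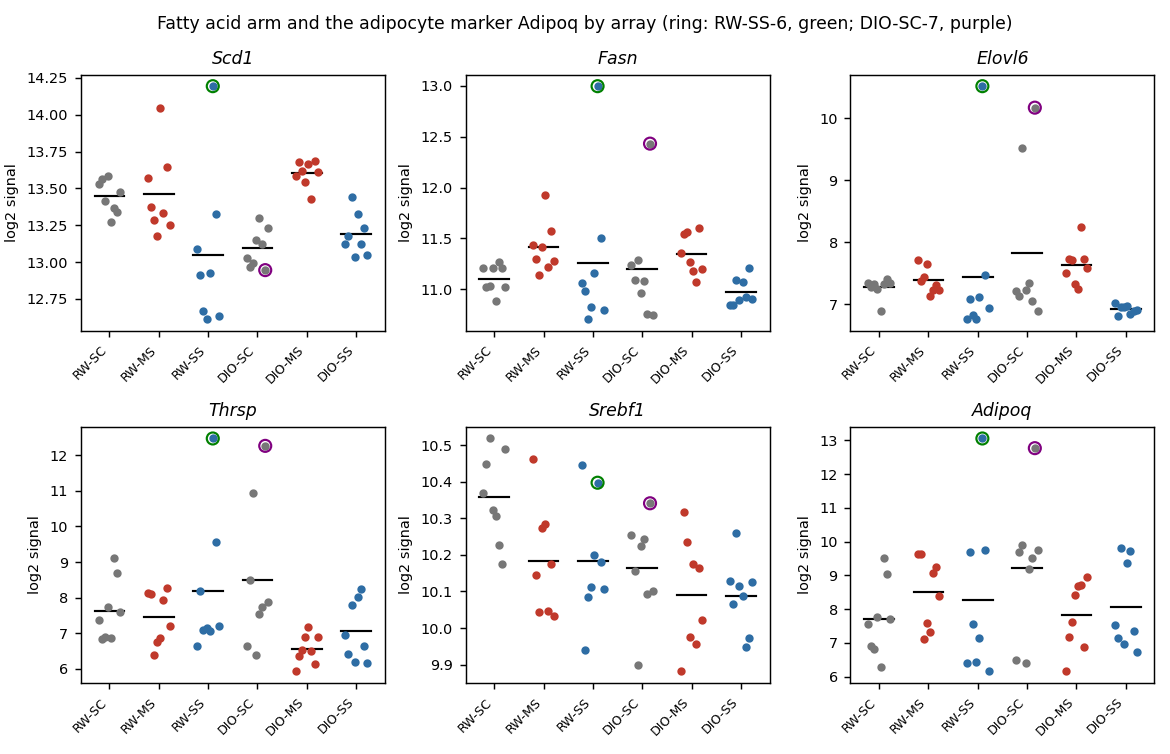
Log2 signal of 5 fatty acid arm genes and the fat cell marker Adipoq on each of the 48 arrays by group, with bars at the group means; a green ring marks RW-SS-6 and a purple ring DIO-SC-7. Both ringed arrays are the highest of their groups for Adipoq (13.06 and 12.77), Thrsp and Fasn, and Scd1 in obese mice is higher after mainstream smoke than in air on every array.

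Of 9 further sterol genes (handling, sensing and side steps of the pathway) 2 rose after mainstream smoke in regular weight mice, Lipa by 0.46 and Npc1 by 0.32. Lipa is the lysosomal acid lipase and Npc1 exports cholesterol from lysosomes. Over all genes 6.61% rose and 8.07% fell. In obese mice 3 rose, Lipa by 0.36, Npc2 by 0.34 and Npc1 by 0.26, and 2 fell, Acat1 by 0.43 and Lbr by 0.22, where 11.7% of all genes rose and 9.76% fell. DIO-SC-7 was the highest obese air array for both: without it Acat1 differed by -0.31 (adjusted p = 0.00053) and Lbr by -0.1 (adjusted p = 0.1). The calls of Lbr (adjusted p = 0.16) and of Npc1 (0.22 ± 0.08, adjusted p = 0.054) were lost without the 5 arrays. After sidestream smoke 0 were called in regular weight mice, and Npc2 rose by 0.27 in obese mice. By an unadjusted p below 0.05, 0 were higher and 1 lower in regular weight mice, against 795 and 1181 of all 12393 genes.

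Of 9 genes of sterol efflux and of the liver X receptors, Ch25h, a hydroxylase that turns cholesterol into an oxysterol, changed most in mainstream smoke. In regular weight mice it ran from 7.36 to 7.81 in air (median 7.55) and from 9.92 to 10.46 after smoke (median 10.23), a rise of 2.62 ± 0.14 (adjusted p = 3e-19). In obese mice it ran from 6.72 to 7.76 in air (median 7.55) and from 9.76 to 11.27 after smoke (median 10.3), a rise of 3.0 ± 0.14 (adjusted p = 1.2e-21). Neither pair of groups overlapped. After sidestream smoke it differed by -0.13 and -0.04, not called. Lpcat3, which remodels phospholipids, rose by 0.18 and 0.3. After mainstream smoke 4 genes fell in regular weight mice, Mylip by 0.39, Cyp27a1 by 0.37, Nr1h3, a liver X receptor, by 0.27 and Abca1, a cholesterol exporter, by 0.22, and in obese mice Cyp27a1 fell by 0.44 and Pltp by 0.28. The shares of all genes in these comparisons were 6.61% higher and 8.07% lower in regular weight mice, and 11.7% and 9.76% in obese mice. Without RW-MS-5 the calls of Lpcat3 (0.13, adjusted p = 0.14) and Abca1 (adjusted p = 0.051) in regular weight mice were lost. In obese against regular weight air Mylip alone of the 9 was called, lower by 0.27 (adjusted p = 0.018), where 5.99% of all genes were lower. With the fat cell covariate Mylip was not called there (-0.24, adjusted p = 0.065).

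Of 17 further fatty acid and lipid synthesis genes, Pgd, a source of NADPH, rose by 0.39 after mainstream smoke in regular weight mice and 0 fell, where 6.61% of all genes rose and 8.07% fell. In obese mice Elovl1 rose by 0.42 and Hsd17b12 by 0.25, while Dgat2 fell by 1.08, Lpin1 by 0.67, Mlxipl by 0.58 and Acss2 by 0.32, against 11.7% of all genes higher and 9.76% lower. Without DIO-SC-7 the falls of Dgat2 (-0.7, adjusted p = 0.11), Mlxipl (-0.34, adjusted p = 0.14) and Acss2 (-0.28, adjusted p = 0.051) were not called, and that of Lpin1 was (-0.57, adjusted p = 0.00021). Dgat2 and Lpin1, which act in triglyceride synthesis, also fell after sidestream smoke in obese mice, by 1.26 and 0.56, in a comparison with the same air arrays, among them DIO-SC-7. Without DIO-SC-7 the sidestream difference of Dgat2 was -0.88 (adjusted p = 0.092) and that of Lpin1 -0.47 (adjusted p = 0.0088). With the fat cell covariate the mainstream differences were -0.16 for Dgat2 (adjusted p = 0.17) and -0.43 for Lpin1 (adjusted p = 0.00032), and the sidestream ones -0.53 (adjusted p = 1.9e-05) and -0.38 (adjusted p = 0.0047). Elovl1, an elongase of very long chains, fell by 0.42 after sidestream smoke in regular weight mice. In obese against regular weight air 3 of the 17 genes were lower and 0 higher, where 5.99% of all genes were lower. They were Lpcat1 (-0.41, adjusted p = 0.0097), Elovl1 (-0.39, adjusted p = 0.016) and Mid1ip1 (-0.26, adjusted p = 0.037). Without the 5 arrays Lpcat1 alone of these was called (-0.24 ± 0.07, adjusted p = 0.016). The interaction of diet with sidestream smoke for Elovl1 was 0.65 (adjusted p = 0.021). With the fat cell covariate neither the diet difference of Elovl1 (-0.22, adjusted p = 0.12) nor its interaction (0.42, adjusted p = 0.099) was called. The diet differences of Lpcat1 (-0.22, adjusted p = 0.052) and Mid1ip1 (-0.16, adjusted p = 0.24) were not called in that fit either.

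**Figure D4:**
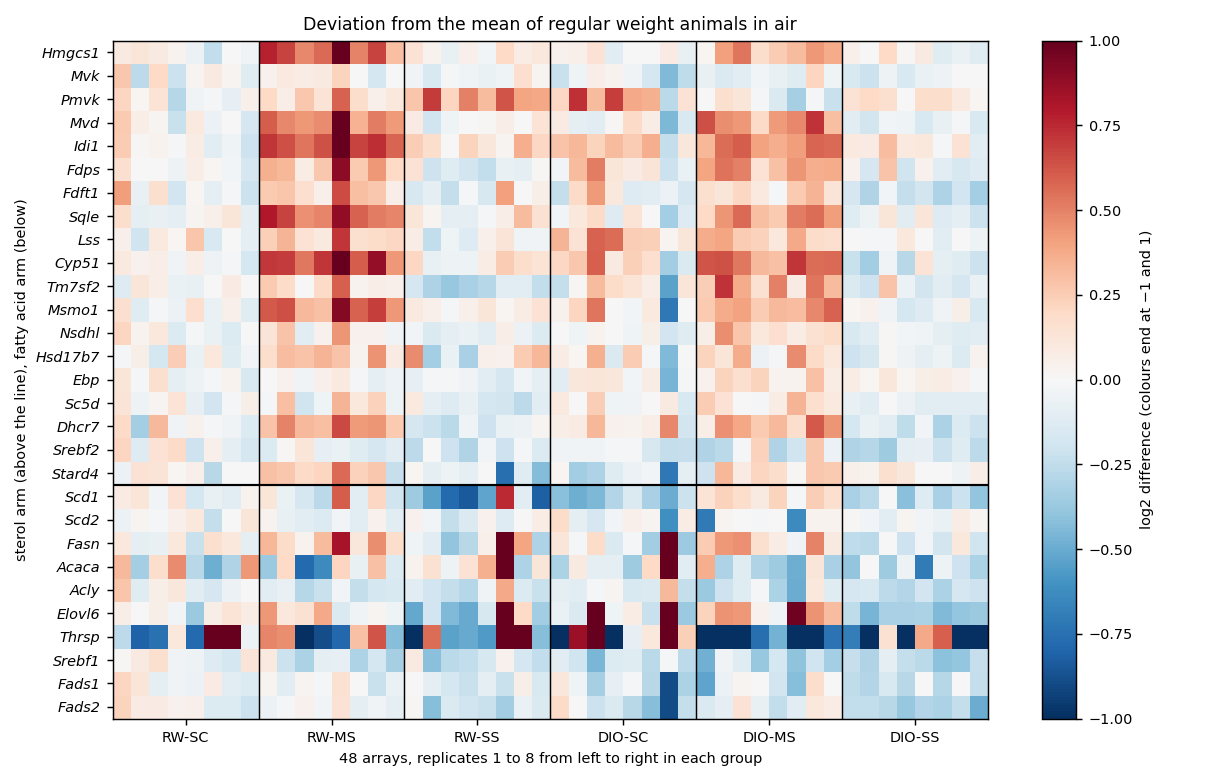
Deviation of each of the 29 genes from its mean in regular weight air, in log2 units, on the 48 arrays by group, with colours that end at 1 in either direction. The mainstream smoke arrays of both diets show higher signal over most sterol arm rows, and single arrays such as DIO-SC-7 and RW-SS-6 stand out over the fatty acid arm.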

How the data were processed

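Total RNA of mouse lung was labelled with the Affymetrix one-cycle protocol and hybridised to 48 arrays in 6 groups of 8, called biological replicates in the labels. The authors deposited log2 signals computed by RMA (background correction, quantile normalisation and summary of probes), per the submitters' processing notes. The sources used here do not give the RMA version or say if the arrays were normalised as 1 set. Values ran from 2.5 to 15.3 and array medians from 7.82 to 7.94, and the number of arrays limits the precision. In both smoke groups of regular weight mice the source labels of arrays 7 and 8 repeat replicate numbers 5 and 6, and these were taken as separate animals. No 2 of the 48 arrays were identical.

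Of 22690 probe sets, 64 were controls, 20393 carried 1 symbol, 691 several and 1606 none. Of these 20380 were used, 20351 were matched by Entrez number to RefSeq names of GRCm38.p6 and 0 symbols changed, and 4956 genes had several probe sets, for which the one with the highest mean was used. For each of 12393 genes, limma 3.58.1 (R 4.3.3; data.table, version 1.17.8) estimated 6 group means and 1 spread from all 48 arrays, with lmFit and eBayes. P-values are two-sided and Benjamini-Hochberg adjusted over all genes within each of 11 comparisons, and the script was tested on simulated data. The members and lists were chosen with earlier results of these data known. The text names called members of each arm by adjusted p and members that moved the other way, and gives levels in all groups for members called in 3 or more of 7 comparisons and for Srebf1 and Srebf2. Levels of other members were chosen after their values were seen. Alternatives were a replicate block, leaving out the 5 arrays that stood apart, a fat cell covariate, centring of arrays, the mean of all probe sets, leaving out the dimmest 20% of genes, eBayes with trend and robust, and only the groups compared. Leaving out RW-MS-5 and leaving out DIO-SC-7 were added after seeing the data.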

Additional observations from a re-analysis of the deposited data

Results flagged for a closer look

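Within groups of 8 arrays, the highest or lowest array lay far from the rest, by Dixon's test, in 26 of 174 combinations of a gene and a group. Chance gives about 1 in 20. DIO-SC-7 accounted for 8, RW-MS-5 for 7 and RW-SS-6 for 5.

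RW-MS-5 was the highest regular weight mainstream array for Pmvk (9.02), Mvd (8.66), Idi1 (10.7), Fdps (11.03), Fdft1 (9.99), Lss (8.65) and Tm7sf2 (8.76), all in the sterol arm. DIO-SC-7 was the highest obese air array for Fasn (12.43), Acaca (7.36) and Acly (12.04). The same array was the lowest of its group for Idi1 (9.4), Msmo1 (8.81), Ebp (9.82), Scd2 (12.18) and Fads1 (9.75). RW-SS-6 was the highest regular weight sidestream array for Fdft1 (9.75), Scd1 (14.19), Fasn (13.0), Acly (12.09) and Elovl6 (10.52), the last 3.05 above the next array.

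Among the other arrays, DIO-SS-3 was highest of its group for Tm7sf2 (8.45) and Sc5d (9.7), and DIO-MS-7 for Mvk (8.22). The lowest arrays that stood off were RW-SC-6 for Stard4 (8.91), RW-MS-8 for Stard4 (8.96) and RW-SC-5 for Elovl6 (6.9).

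The response to smoke differed between the diets, by the interaction in limma, for Pmvk in mainstream smoke (-0.57), for Idi1 in mainstream smoke (-0.43) and for Pmvk in sidestream smoke (-0.62), each as the obese minus the regular weight response.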

How the results depend on the processing

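Of 64 member calls over the 11 comparisons, 38 held under each of the 10 alternatives and 0 reversed. The calls lost were 17 with only the groups compared, 11 with the mean of all probe sets, 6 without RW-MS-5, 4 without the 5 arrays, 4 with the fat cell covariate, 3 without DIO-SC-7, 1 with centring, 1 with the replicate block, 0 with trend and robust and 0 without dim genes. Counts of members that moved by over 1.5 times follow, and where no value shows a cause it was not tested. For DIO-SC against RW-SC the count of 2 became 4 without the 5 arrays, 4 with the fat cell covariate and 1 with only the groups compared. For DIO-MS against RW-MS the count of 1 became 2 with the covariate and 0 with only the groups compared. For DIO-SS against RW-SS the count of 0 became 1 without the 5 arrays and 1 with only the groups compared. For DIO-MS against DIO-SC the count of 15 became 8 with only the groups compared, a fit with fewer arrays. For RW-SS against RW-SC the count of 1 became 3 without the 5 arrays and 2 each with the covariate, the mean of probe sets and only the groups compared. For DIO-SS against DIO-SC the count of 2 became 1 in each of the covariate, probe set mean and groups-compared fits. The mainstream interaction count of 2 became 0 with only the groups compared, and the sidestream one of 1 became 3 without the 5 arrays. Without RW-MS-5 or DIO-SC-7 the counts ran from 3 to 4 for DIO-SC against RW-SC, 0 to 1 for DIO-SS against RW-SS and 1 to 2 for the sidestream interaction. The replicate block left 63 of 64 calls and lost Nsdhl in RW-MS against RW-SS (adjusted p = 0.053). Arrays with the same number did not pair: their deviations correlated at a median of 0.04 over 120 pairs (-0.39 to 0.48), against -0.01 for 840 pairs of different numbers. Centring shifted the split of calls over all genes, higher against lower, from 284 and 742 to 416 and 543 for DIO-SC against RW-SC, from 86 and 183 to 137 and 141 for RW-SS against RW-SC, from 750 and 461 to 711 and 677 for RW-MS against RW-SS, from 1448 and 1210 to 1380 and 1513 for DIO-MS against DIO-SC, and from 1094 and 992 to 997 and 1287 for DIO-MS against DIO-SS. It shifted those of the interactions from 73 and 37 to 48 and 58 (mainstream) and from 49 and 32 to 44 and 51 (sidestream).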

Other observations

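Probe sets of the same gene mostly moved the same way in mainstream smoke, with some differences in size. The unused probe sets gave, in regular weight mice, 1.21 for Idi1 against 0.7 for the one used, and 1.09 and 0.21 for Cyp51 against 0.72. Hmgcs1 gave 0.75, 0.78 and 0.54 on its other 3 probe sets against 0.62. After sidestream smoke in regular weight mice the unused Idi1 probe set gave 0.73 against 0.17, and those of Hmgcs1 gave 0.33, 0.31 and 0.17 against 0.06. Those of Cyp51 gave 0.36 and 0.13 against 0.08.

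Lss differed between probe sets. The one used gave 0.28 for obese against regular weight air and -0.02 for mainstream smoke in obese mice, while another, of mean 7.09, gave -0.05 and 0.19. For Scd2 in regular weight mice after mainstream smoke the probe set used gave -0.06 and the others -0.3 and -0.59. A second probe set of Fdps was dim, with a mean of 3.1, and gave -0.14 in the same comparison, where the one used gave 0.35. For Srebf2 a second probe set, of mean 9.31, gave 0.13 and 0.2 for mainstream smoke against air in regular weight and obese mice. Against sidestream smoke it gave 0.26 and 0.2. The Srebf2 probe set used gave -0.07 and 0.02 against air, and 0.07 and 0.14 against sidestream smoke.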
